A study of Mus musculus with 2 samples.

Results

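T-bet and the interferon gamma programme were represented by 8 genes, a set chosen with earlier results of these data known and reported in full. They were Tbx21, Eomes, Ifng, Stat4, Hopx, Txk, Crtam and Cd160, among 30142 genes with an array row of their own symbol. The 8 genes had 9 rows of 65956, since Hopx had 2, and no further row named a member together with another gene. RNA came from Vγ6 γδ T cells, a subset found in the perinatal thymus known for making interleukin-17 (IL-17), sorted with antibodies on a flow cytometer from thymus of 0-day-old C57BL/6 mice. The mice were MHC class II KO, without the surface proteins that show peptides to CD4 T cells, or WT. Each genotype had 1 array, 2 in all, so no difference given here has an error or a test, and the values describe these 2 arrays. The labels name neither the disrupted class II gene nor the number or sex of the animals, and do not say whether animals were pooled. In a sorted population such as this, more cells that use a gene and more RNA per cell cannot be told apart.

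T-bet, the product of Tbx21, is a T-box transcription factor that turns on Ifng, the gene for interferon gamma, in T cells and innate lymphocytes, and EOMES is its closest relative in lymphocytes. The cytokine IL-12 acts through STAT4 to raise both Tbx21 and Ifng, and T-bet in turn raises a receptor chain for IL-12. In γδ T cells, interferon gamma and IL-17 are largely made by separate subsets, and Vγ6 cells belong to the second.

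The promoters of Tbx21 and Ifng are shown because they belong to the regulator with the largest difference among the members and to the cytokine gene it is known for. Each is the 250 bases upstream of the RefSeq start on GRCm38.p6, 5′ to 3′ on the strand of the gene. Tbx21 lies at chr11:97115332-97115581 on the minus strand and Ifng at chr10:118440796-118441045 on the plus strand. Capitals mark a match to the STAT motif TTCNNNGAA or to the T-box core GGTGTG, each searched on both strands; no matches of the motifs overlapped.
Tbx21: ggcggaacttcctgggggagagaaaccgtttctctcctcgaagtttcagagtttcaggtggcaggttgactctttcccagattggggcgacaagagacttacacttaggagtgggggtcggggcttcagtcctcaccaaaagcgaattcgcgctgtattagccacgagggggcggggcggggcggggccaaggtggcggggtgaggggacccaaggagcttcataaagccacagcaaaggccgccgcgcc
Ifng: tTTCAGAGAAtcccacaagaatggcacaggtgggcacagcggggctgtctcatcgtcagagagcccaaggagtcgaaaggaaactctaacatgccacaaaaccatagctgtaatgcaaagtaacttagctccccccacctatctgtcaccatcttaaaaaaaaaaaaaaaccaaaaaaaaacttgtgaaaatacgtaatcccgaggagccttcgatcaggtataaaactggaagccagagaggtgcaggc
The Tbx21 stretch held neither motif, and that of Ifng held 1 STAT match, starting 249 bases before the start, and no T-box core. RefSeq windows were matched for 7 of the 8 genes, 11 windows in all; 3 held the T-box core, of which 2 belonged to Cd160 and 1 to Txk, and 2 held the STAT motif, that of Ifng and 1 of Cd160. Of 32851 windows of the same length over all genes, 16.3% held the T-box core and 7.02% the STAT motif. A match describes letters and not a bound site.

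The signals are intensities on a linear scale made by the authors. The background of each array was set at the 95th percentile of 1228 rows of olfactory receptor genes, which have no known role in T cells, and came to 58.2 in MHC class II KO cells and 61.3 in WT cells. Of the 8 genes, 5 were above background on both arrays and 3 on neither. A 2-fold gap or more was found for 1.95% of the 14494 genes above background on at least 1 array, 0.793% higher in MHC class II KO cells and 1.15% lower. Of the 5 measurable members, Tbx21 alone was 2-fold higher, a count of 1, and none was 2-fold lower. At 1.5-fold the members' counts were the same, beside 7.17% of all genes, 4.0% higher and 3.17% lower. The members' median difference, taken as the log2 signal of MHC class II KO cells minus that of WT cells, was -0.32, with 2 above 0 and 3 below, beside a median of 0.04 over all genes above background.

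**Figure D1:**
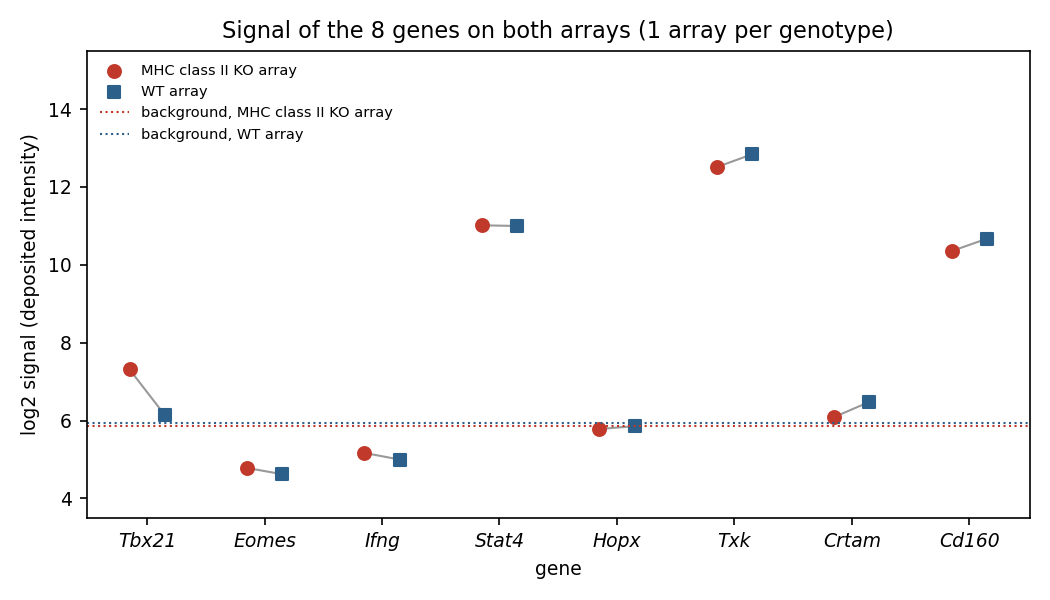
Log2 signal of each of the 8 genes in MHC class II KO cells (red circles) and WT cells (blue squares), with dotted lines at the background of each array; of the 2 Hopx rows the brighter is drawn. Eomes, Ifng and Hopx lie under the background on both arrays, Tbx21 is the member with the widest gap between the arrays, and the rows of different genes cannot be set against each other in level.

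Tbx21 had a signal of 159 in MHC class II KO cells, against 70.6 in WT cells. Both values are low: the first was 2.73 times its array's background and the second 1.15 times. The difference was 1.17 on the log2 scale, a 2.25-fold higher signal in MHC class II KO cells, and ranked number 69 from the top of 14494 genes. Of the olfactory receptor rows, 99.3% lay below the Tbx21 signal in MHC class II KO cells and 96.7% in WT cells. With the background at the 99th percentile of those rows, Tbx21 was above it in MHC class II KO cells alone, and the fold has only a bound of at least 1.23-fold higher. Among the 2733 genes whose mean log2 signal was within 0.5 of that of Tbx21, 0.512% were 2-fold higher or more and 2.74% 2-fold lower or more. In the same comparison the median difference was 0.80 for markers of double positive and αβ thymocytes and 0.23 for markers of NK cells and group 1 innate lymphoid cells, described further on, and their part in the Tbx21 value was not tested.

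The 3 genes whose pair of log2 signals lay closest to that of Tbx21 were Cntnap1, Stab2 and Fbxl8, at distances of 0.13, 0.17 and 0.23. With only 2 arrays such closeness describes a level and a difference and no shared pattern. Along chromosome 11 in RefSeq order, the genes next to Tbx21 were Osbpl7, which differed by 0.12, and Tbkbp1, which was not above background on either array.

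EOMES, the other T-box factor of lymphocytes, drives the NK cell and cytotoxic CD8 T cell programmes. The Eomes signal was 27.5 in MHC class II KO cells and 24.6 in WT cells, both under background, so no fold is given. Of 16 T-box genes with a row, Tbx21 and Mga were above background. Mga, which encodes a large repressor of MYC and E2F target genes that carries a T-box as well as a MAX-binding domain, differed by 0.16. The other 14 were under background on both arrays, Eomes and the developmental factors Tbx1, Tbx2, Tbx3, Tbx4, Tbx5, Tbx6, Tbx10, Tbx15, Tbx18, Tbx19, Tbx20, Tbx22 and Tbr1.

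Ifng encodes interferon gamma, the cytokine that activates macrophages and raises antigen presentation. It had a signal of 35.9 in MHC class II KO cells and 31.9 in WT cells. Both were under background: 79.3% of olfactory receptor rows were dimmer in MHC class II KO cells and 72.0% in WT cells. A transcript at this signal cannot be compared between the genotypes, and the 2.25-fold higher Tbx21 signal therefore stood beside no measurable Ifng signal on either array. The neighbouring lncRNA Ifngas1, transcribed next to Ifng and known in mouse to raise its expression, was also not above background on either array.

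Stat4 encodes the transcription factor that IL-12 activates. It had signals of 2070 in MHC class II KO cells and 2046 in WT cells, far above background on both arrays. The difference was 0.02, and its sign turned when the differences were centred, quantile normalized or corrected by loess. Among the 6 STAT genes with a row of their own symbol, all above background on both arrays, the median was -0.0034 and none was 2-fold apart. Stat2, a mediator of type I interferon signals, differed by 0.61, Stat6, which acts after IL-4, by 0.23, and Stat3, which acts after IL-6 and IL-23, by -0.22. Stat5a and Stat5b, which act after IL-2 and IL-7, differed by -0.03 and -0.02.

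HOPX, the product of Hopx, is a small homeodomain protein that does not bind DNA itself and in mouse supports the survival of T-bet-expressing helper cells. Its brighter row had signals of 55.0 in MHC class II KO cells and 57.9 in WT cells, just under background on both. Its second row had 22.1 in MHC class II KO cells and 21.3 in WT cells. With the background at the 90th percentile, the brighter row was above it on both arrays, with signals 1.05-fold apart.

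TXK is a T cell kinase of the Tec family, reported in human T cells to act on the IFNG promoter. Txk had a signal of 5834 in MHC class II KO cells, against 7331 in WT cells, a difference of -0.33 or 1.26-fold lower, and 1 of its promoter windows held the T-box core. Its neighbour on chromosome 5 is Tec, the family's founding gene, which differed by -0.18, and on the other side Nipal1 differed by 0.07. The B cell and myeloid family members Btk and Bmx were under background on both arrays.

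CRTAM is a surface receptor of activated CD8 T and NK cells that binds the adhesion molecule CADM1 and, in mouse CD4 T cells, marks cells that make interferon gamma. Crtam had signals of 68.1 in MHC class II KO cells and 89.3 in WT cells, which is 1.17 times the background in MHC class II KO cells and 1.45 times in WT cells. The difference was -0.39, a 1.31-fold lower signal. With the background at the 99th percentile Crtam was above it on neither array. The gene for its ligand, Cadm1, and those of the related Cadm3 and Cadm4 were under background on both arrays, and Scrib, whose product binds CRTAM inside the cell, differed by 0.11. Cd226 and Cd96, receptors for nectin-like proteins of the same wider family, went the other way from Crtam, with differences of 1.11 and 0.90. Cd226 had signals of 1773 in MHC class II KO cells and 819 in WT cells, and Cd96 had 10493 in MHC class II KO cells and 5615 in WT cells. Tigit was under background on both.

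CD160 is a receptor of NK cells, intraepithelial lymphocytes and some T cells that binds the TNF receptor family member HVEM. Cd160 had signals of 1308 in MHC class II KO cells and 1630 in WT cells. The difference was -0.32, a 1.25-fold lower signal, in a gene whose promoter windows both held the T-box core. Tnfrsf14, the gene for HVEM, differed by 0.03, Tnfsf14, the gene for the HVEM ligand LIGHT, by 0.47 and Lta, the gene for lymphotoxin α, by 0.11. The gene for BTLA, an inhibitory receptor for HVEM, was under background on both arrays, as was the lymphotoxin β receptor gene Ltbr.

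The genes beside the other members in RefSeq order, among those with a row, were 1.5-fold apart in 1 case. Ubash3b, next to Crtam and known for a phosphatase that dampens T cell receptor signals, differed by 0.75, opposite to Crtam, and Jhy on the other side was under background. Golga4, next to Eomes, differed by 0.11, and Rnf115, next to Cd160, by -0.07. The pseudogenes Gm8420 and Gm3940 beside Stat4 differed by -0.13 and -0.06, and Gm9049 beside Ifng by 0. Gm22479 beside Eomes, Pdzk1 beside Cd160 and both neighbours of Hopx, Thegl and Gm15831, were under background on both arrays.

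**Figure D2:**
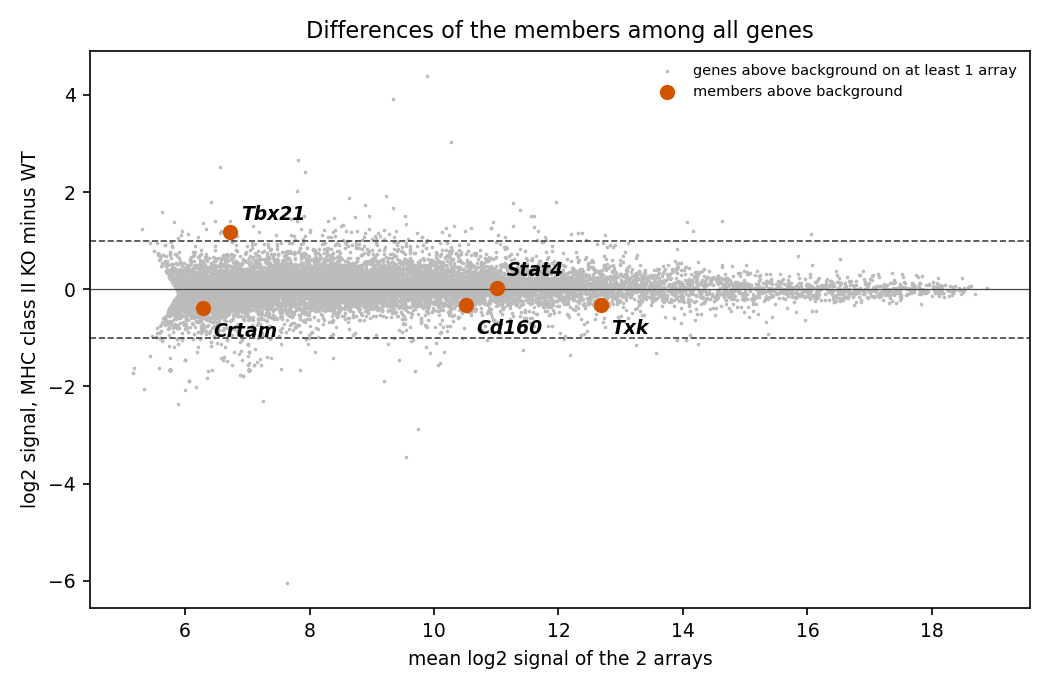
Difference in log2 signal, MHC class II KO minus WT, against the mean log2 signal for 14494 genes above background (grey) and the 5 members above it (orange); dashed lines mark 2-fold. Tbx21, at 1.17, lies above the upper line among the dimmer genes, and Stat4, Txk, Crtam and Cd160 lie between the lines.

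Genes for the receptors and kinases that lead to T-bet were mostly measurable. Of 16 with a row, 15 were above background on both arrays and 1 on a single array, and none was 1.5-fold apart (median 0.06). Il12rb2, the inducible IL-12 receptor chain and itself a target of T-bet, was above background in MHC class II KO cells alone, which bounds it at 1.27-fold higher or more. The interferon gamma receptor chain gene Ifngr2 differed by -0.50, the Notch receptor gene Notch1 by 0.48 and the IL-27 receptor gene Il27ra by 0.47. Some further receptor genes are named after their values were seen: the shared chain of the IL-12 and IL-23 receptors, Il12rb1, differed by 0.40, the second interferon gamma receptor chain, Ifngr1, by -0.39, and the IL-18 receptor chains Il18r1 and Il18rap by -0.06 and -0.42.

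The partners and co-factors of T-bet lay close together on the 2 arrays. Of 14 above background, none was 1.5-fold apart, and the median was 0.01, with 7 above 0 and 7 below; the median was below 0 under the centring and loess scalings, with genes above background on both arrays, and with no background filter. Cbfb, which pairs with RUNX proteins, differed by 0.40 and Nfatc1, a calcium-dependent factor, by 0.27. Bhlhe40, a repressor that supports interferon gamma in mouse T cells, differed by -0.16 and Kdm6b, a histone demethylase gene, by -0.15. Factors that restrain T-bet or direct other fates had a median of 0.08 over 12 genes, which was -0.03 with the background at the 99th percentile. Of these, 1 was at least 1.5-fold lower, Ahr (-0.92), a ligand-activated factor of IL-17 and IL-22 producing cells. Lef1, an HMG-box factor, differed by -0.51, Rora, a partner of RORγt in IL-17 cells, by -0.37, and Zbtb16, the gene for PLZF, by 0.47.

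Genes known to depend on T-bet or EOMES lay on both sides of 0. Of 21 genes, 14 were above background, 6 with differences above 0 and 8 below, and the median was -0.10. None was at least 1.5-fold higher and 3 were at least 1.5-fold lower by measured values, beside 4% and 3.17% of all genes above background. Nkg7, a cytotoxic granule protein gene, had signals of 1792 in MHC class II KO cells and 4266 in WT cells, a difference of -1.25. Gzmb, the gene for granzyme B, had 126 in MHC class II KO cells and 275 in WT cells, a difference of -1.13. Ccl3, a chemokine gene, was above background in WT cells alone and is bounded at 1.44-fold lower or more, so it passed 1.5-fold only by its measured difference of -0.76. The chemokine receptor gene Cxcr6 stood at the other end with a difference of 0.50. Cxcr3, a direct target of T-bet in mouse T cells, is added after its value was seen; it had signals of 96.3 in MHC class II KO cells and 86.4 in WT cells, a difference of 0.16.

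Genes typical of the γδ T cells that make interferon gamma had a median of 0.27 over 12 above background, of 14 with a row, beside 0.04 over all genes. Of these, 3 were at least 1.5-fold higher and none 1.5-fold lower, beside 4% and 3.17% of all genes above background. Markers of double positive and αβ thymocytes (median 0.80) and of single positive and NKT cells (median 0.57), a list that also holds Slamf6, lie in the same direction, and their part in this median and in Cd5, Slamf6 and Nt5e was not tested. Nt5e, the gene for the ectoenzyme CD73, had a signal of 450 in MHC class II KO cells and 111 in WT cells, a difference of 2.02. Slamf6, a homophilic receptor of lymphocytes, differed by 1.17, Cd5, a brake on antigen receptor signals, by 0.63 and the NK receptor gene Klrd1 by -0.47.

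Targets of the interferon gamma receptor were mostly higher in MHC class II KO cells, although Ifng itself was not measurable. Of 19 above background, of 25 with a row, 16 differences were above 0, and the median was 0.37, against 0.04 over all genes. Of these, 4 were at least 1.5-fold higher and none 1.5-fold lower, beside 4% and 3.17% of all genes above background. The 3 below 0, named after their values were seen, were Icam1 (-0.43), Cd274 (-0.24) and Irf1 (-0.07). Irf8, a transcription factor gene, had signals of 435 in MHC class II KO cells and 201 in WT cells, a difference of 1.11. The guanylate-binding protein genes Gbp4 and Gbp7 differed by 0.96 and 0.74 and the immunity-related GTPase gene Igtp by 0.69. Many of these genes also answer to type I interferon. The thymocyte marker median of 0.80 lies in the same direction, and its part was not tested. The chemokine genes Cxcl9, Cxcl10 and Cxcl11 were under background on both arrays.

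**Figure D3:**
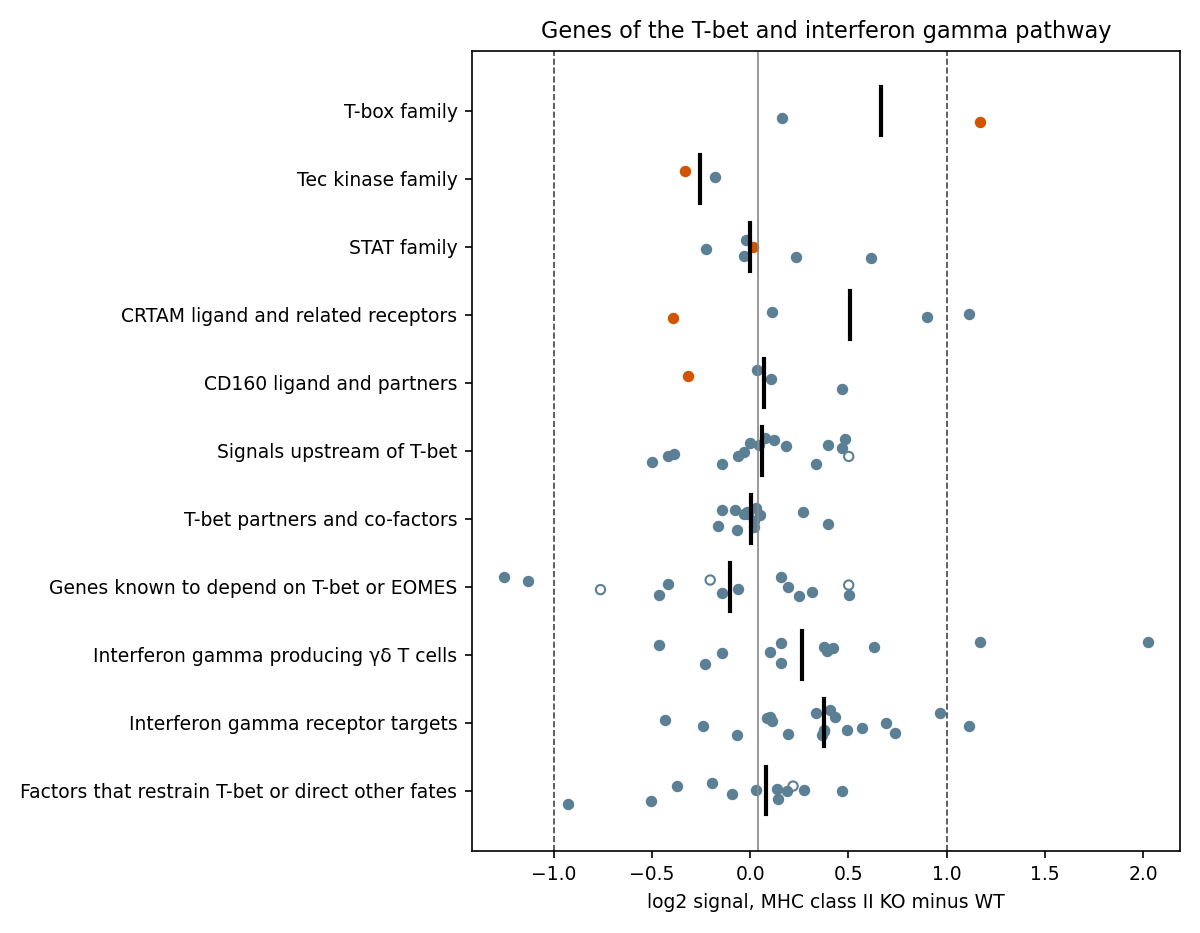
Difference in log2 signal, MHC class II KO minus WT, for the genes above background in each of 11 lists; open points were above background on 1 array, orange points are members, black bars are list medians, the grey line is the median of all genes (0.04) and dashed lines mark 2-fold. Nkg7 and Gzmb lie left of the lower line, and the interferon gamma receptor targets lie mostly right of 0 with a median of 0.37.

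Markers of other cells were set beside these values, since several of the genes are used by cells that a thymus sort could hold. Of 14 markers of Vγ6 and IL-17 γδ T cells with a row, 14 were above background on both arrays, with a summed signal of 306849 in MHC class II KO cells and 310804 in WT cells. These sums rest on a few bright genes, Cd3e, shared by all T cells, first among them, and do not show single markers. Summed signals, here and below, take all markers of a list with a row, also those under background. Past 2-fold were Il17f (-2.88) and Il17a (-1.57), the IL-17 cytokine genes, and Ccr6 (1.46), a chemokine receptor gene of IL-17 producing cells. NK cells and group 1 innate lymphoid cells are the best known sources of Tbx21 and Eomes outside T cells. Of their 14 markers with a row, 6 were above background, 5 with differences above 0 and 1 below (median 0.23). The summed signal of all 14 was 2305 in MHC class II KO cells and 1941 in WT cells, mostly from Gzma. Ncr1, Prf1 and Eomes were among those under background on both arrays. Gzma, the gene for granzyme A, and Klrb1c, the gene for NK1.1, were above background on both and differed by 0.31 and 0.16. Tyrobp, Itga2 and Fcgr3 were also above it on both, with differences of 0.34, 0.30 and -0.07. Double positive and αβ thymocyte markers lay in the direction of Tbx21. Of 11 with a row 10 were above background (median 0.80). Of those, 10 were above 0 and 8 were 1.5-fold higher or more by measured values, beside 4% of all genes above background. The summed signal of all 11 was 33228 in MHC class II KO cells and 13726 in WT cells. Most of that sum was Cd8b1, and without it the sum was 5626 in MHC class II KO cells and 3092 in WT cells. Ptcra, above background in MHC class II KO cells alone, passed 1.5-fold only by its measured value and is bounded at 1.41-fold. Cd8b1, the CD8 β chain gene, differed by 1.38, and Dntt, of the recombination machinery, was above background in MHC class II KO cells alone, at least 3.68-fold higher, while Rag2 was under background on both. Markers of single positive and NKT cells, which share genes with that list, had a median of 0.57 over 9 genes and a summed signal of 36787 in MHC class II KO cells and 16324 in WT cells, or 9184 in MHC class II KO cells and 5690 in WT cells without Cd8b1. NKT cells and some mature thymocytes use Tbx21 and Cd226, and the part of any such cells in the differences of Cd226 and Cd96 was not tested.

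**Figure D4:**
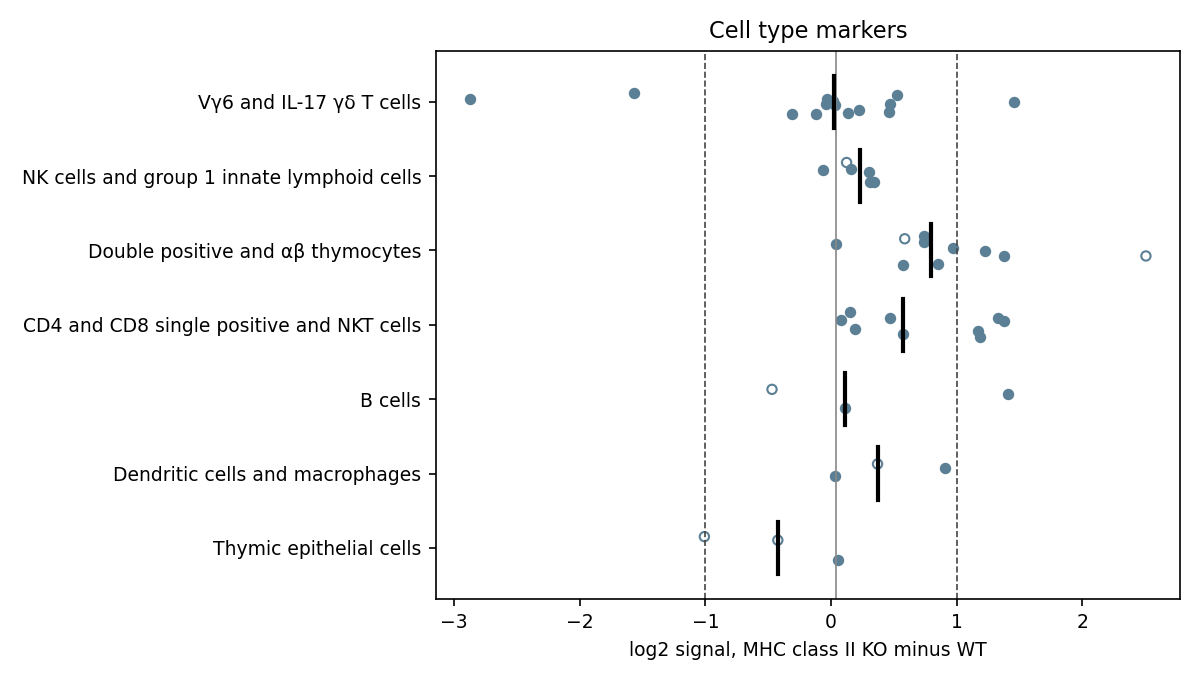
Difference in log2 signal, MHC class II KO minus WT, for the markers above background of 7 cell types; open points were above background on 1 array, black bars are medians, the grey line is the median of all genes and dashed lines mark 2-fold. Double positive and αβ thymocyte markers lie right of 0 with a median of 0.80, and those of NK cells and group 1 innate lymphoid cells have a median of 0.23.

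Of the remaining lists, 3 of 10 B cell markers with a row were above background, led by Ighm with a difference of 1.41, and Cd79a, Ms4a1 and Pax5 were under background on both arrays. The summed signal of all 10, nearly all from Ighm, was 42609 in MHC class II KO cells and 16879 in WT cells. For dendritic cells and macrophages, 3 of 14 markers were above background, and the summed signal of all 14 was 1037 in MHC class II KO cells and 776 in WT cells. Cd68, the brightest of them, differed by 0.91. Without Cd68 the sum of the other markers, most of them under background, was 551 in MHC class II KO cells and 517 in WT cells. Itgax, Csf1r and Adgre1 were under background. These cells use Irf8 and other interferon targets, and their part in those values was not tested. Of 10 thymic epithelial markers 3 were above background, and the summed signal of all 10 was 378 in MHC class II KO cells and 461 in WT cells.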

How the data were processed

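Sorted cells were lysed in TRIzol, and column-purified total RNA was amplified and labelled for GeneChip arrays, per the labels' protocols. The deposited intensities are linear values for 65956 rows, made with RMA (robust multi-array average) and Affymetrix Expression Console 1.4.1, per the submitters' processing notes; for the RMA settings and the genome build of the rows, the sources used here give nothing. Of the rows, 742 in MHC class II KO cells and 767 in WT cells exceeded 65535, the ceiling of a 16-bit scanner, so an undescribed step shaped the scale and could have changed every fold. The number of arrays limits the precision.

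Rows were named from the platform annotation, which can be old: 30604 had 1 gene symbol, 2146 several and 33206 none. Symbols were updated by gene identifier through RefSeq (GRCm38.p6), which matched 22818 rows and changed 827; RefSeq gave gene order and promoters. The brightest row of a gene was used. A gene above background on 1 array has a bound, and one under it on both has no fold. Counts use measured differences. With 1 array per group no test was possible.

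The members and lists were chosen with earlier results of these data known. All 8 members and all family list genes with a row were named; other lists gave their 4 largest absolute differences, with the gene on each side of a member and the 3 genes nearest to Tbx21. Cell type markers, and list genes under background, were picked for naming after their values were seen. The counting step was tested on simulated data, with planted changes larger than 2-fold in genes well above background only. Recovery of a change in dim genes such as Tbx21 and Crtam was not simulated. Alternatives were 3 scalings, raising dim values to background, averaging rows, 4 background filters, thresholds of 1.5-fold and 3-fold, and rows with several symbols. Python 3.11.15, numpy 2.4.6, pandas 2.3.3 and statsmodels 0.14.6 were used.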

Additional observations from a re-analysis of the deposited data

How the results depend on the processing

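With 1 array per group, depth of evidence is limited by the missing replicates and, for Tbx21, Crtam and Hopx, by signals near background. A value was taken to have moved when it shifted by more than 0.25, the robust SD of the differences of all genes, and a count when it shifted by over 1.5 times; 226 recomputed values did not move and 15 did. Over the main setting and the 3 scalings, the difference of Tbx21 ran from 1.13 to 1.19 and Txk from -0.39 to -0.33. Crtam ran from -0.43 to -0.34, Cd160 from -0.40 to -0.31 and Stat4 from -0.06 to 0.02. The filters, row rules and raising of dim values cannot shift these differences, so they do not check them. The 226 values that did not move include such fixed values. With the background at the 99th percentile, the Tbx21 difference was counted as not moved although it has only a bound there. With no background filter, 8 members entered in place of 5, and the medians of the T-box and CRTAM lists were 0.0040 and 0.074 in place of 0.67 and 0.51. The 0.67 was the median of only 2 genes, Tbx21 and Mga, and the 0.51 that of 4 genes, Crtam among them. With the background at the 90th percentile the T-box median was 0.16, and at the 99th the CRTAM median was 0.90, as fewer or more genes entered these short lists. With genes above background on both arrays 105 in place of 167 were at least 2-fold lower. At 1.5-fold, 580 genes were higher and 459 lower, of which 11 and 4 were in the pathway lists, in place of 5 and 2 at 2-fold. At 3-fold, 15 genes were higher and 82 lower, 1 and 0 of them in the pathway lists, and 0 members were higher. No paired analysis was possible because each group had 1 array.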
